A study of Mus musculus with 16 samples.

Results

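ID8 is a mouse ovarian cancer line derived from ovarian surface epithelium. The comparison described here sets ID8 libraries with a knockout of Trp53bp1 against wild-type ID8 libraries, both labelled as tumours. The 6 ID8 libraries, 3 wild type and 3 knockout, were chosen by the cell line and genotype in their labels, out of 16 libraries in the series. The other 10 come from KPC, a mouse pancreatic cancer line, with 5 of each genotype, and they enter only as a reference for host cell transcripts and in 1 alternative fit. RNA sequencing counts were joined by gene identifier, and a gene absent from one table was taken as 0. Of 15617 genes with a count in ID8, 11933 passed the filter on low counts and were tested.

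The labels give both groups as tumours of implanted lines in syngeneic mice and name no treatment, mouse age or further allele. Each genotype stands for 1 line, so the knockout and any other difference between the lines compared cannot be told apart. The labels call the replicates biological, without naming animals, and the p-values measure the spread between these libraries. The protocol text speaks of RNA extracted from cells, and every list of host cell markers summed to far less than in KPC. Of 17 T and NK cell markers 14 were at 0 counts in every ID8 library, Ptprc, Cd3e and Cd8a among them, as were 10 of 20 myeloid markers, including Adgre1, Itgam and Tyrobp, and 9 of 20 endothelial, pericyte and red blood cell markers, including Cdh5 and Hbb-bs. The summed myeloid list was at 12.4 to 14.8 counts per 1e+06 counts (CPM) in wild-type and 4.65 to 6.57 CPM in knockout libraries, against 2137 to 6033 CPM in KPC. Of 20 host fibroblast, fat and muscle markers 5 were at 0 counts. That whole list summed to 41.1 to 47.3 CPM in wild type and 40.7 to 44.3 CPM in knockout, against 712 to 28547 CPM in KPC. Whether the ID8 libraries hold whole tumours, as labelled, was not tested. Total counts ranged from 18963868 to 19727541 per ID8 library, so that 3 counts correspond to 0.153 to 0.158 CPM, and the biological coefficient of variation was 5.08%.

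Trp53bp1 encodes 53BP1, a chromatin-bound factor that gathers at DNA double-strand breaks and limits the trimming of their ends. It thereby favours end joining over homologous recombination, and it also binds p53 and the deubiquitinase USP28. Loss of 53BP1 is best known for restoring recombination to cells that lack BRCA1. The levels below are CPM after scaling of library sizes. CPM is not divided by transcript length, so it compares libraries, not genes.

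Trp53bp1 itself stood at 44.7, 49.4 and 44.1 CPM in wild type and 17.8, 18.5 and 18.8 CPM in knockout. The groups did not overlap, and the knockout mean was 39.9% of the wild-type mean (log2 fold change -1.33, SE 0.0667, edgeR adjusted p = 1.15e-10). By an exact permutation test over libraries, two-sided, p was 0.1, and 3 libraries against 3 allow no smaller value. Which part of the gene was removed is not stated in the labels, and transcript that remains does not measure the protein.

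In all, 6067 of the 11933 tested genes passed an edgeR quasi-likelihood test at an adjusted p of 0.05, which is 50.8%. Of these 3027 were higher in knockout (25.4% of tested genes) and 3040 were lower (25.5%). Most of these changes were small, as 74.6% of the called genes differed by less than 1.5-fold. Changes of 2-fold or more were called for 747 genes (6.26%), 256 higher (2.15%) and 491 lower (4.11%), and changes of 4-fold or more for 88 higher and 157 lower genes. The median log2 fold change over all tested genes was 0.0062, with a median standard error of 0.0681. Libraries of the 2 groups did not overlap for 6921 genes (58%). When all 16 libraries were fitted together, 1170 genes were called higher (7.84% of 14921) and 1509 lower (10.1%), and 2548 of the calls were shared with the fit of the 6 ID8 libraries. Below, "rose" and "fell" are used of genes called in the fit of the 6 libraries, and a count in the fit of 16 libraries is given where it differs by more than 1.5 times. The counts of each list below stand against the shares of all tested genes, 25.4% higher and 25.5% lower. Among the genes named below as changed, Atf4, Grk2, Ccs, Hdac6, Adamts3, Ankrd17, Eef1a1, Hif1a, Hif1an, Plod1, Car9, Pcx, Col16a1, Upk3b, Wt1, Cdkn1a, Casp1, B2m and Cd274 did not pass in the fit of 16 libraries.

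In CPM, the 6 largest losses were those of the glycolytic genes Gapdh, Pgk1 and Eno1, the elongation factor gene Eef1a1, the actin gene Actg1 and the desaturase gene Scd2. Gapdh stood at 12642, 11319 and 11446 CPM in wild type and 6651, 7064 and 7196 CPM in knockout. The 6 largest gains were those of Timp2, Upk3b, Fth1, Sdc4, Flt4 and Upk1b. Timp2, an inhibitor of matrix metalloproteinases, rose from 2003 ± 36.5 to 3428 ± 39.6 CPM (SD, n = 3 each). Upk3b and Upk1b encode uroplakins, membrane proteins that mesothelial cells also make, and Fth1 encodes the heavy chain of the iron store ferritin.

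**Figure D1:**
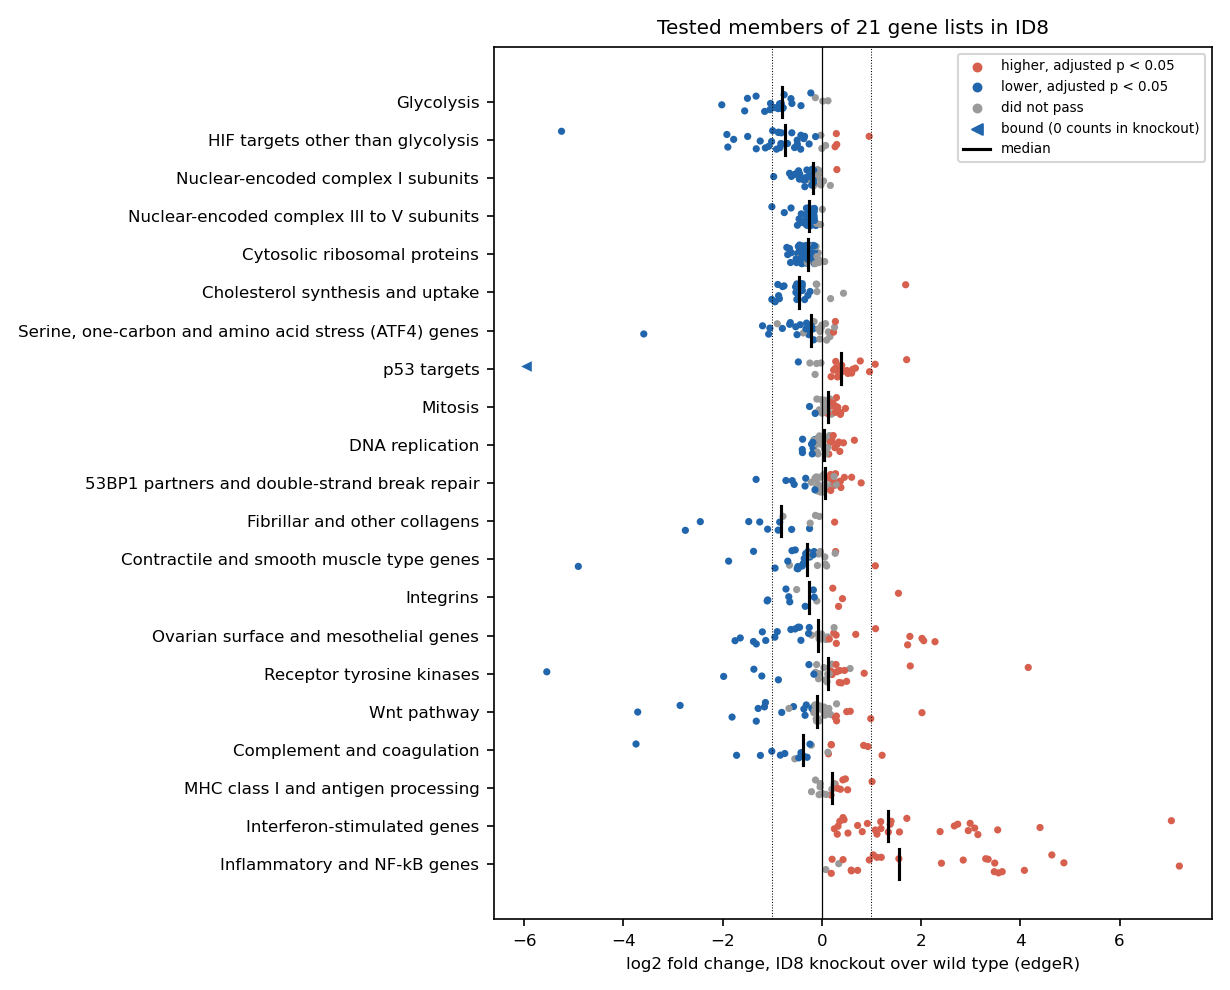
Log2 fold change of knockout over wild type (horizontal axis) for every tested member of 21 gene lists (rows), coloured by the edgeR call, with the median of each list as a black bar and dotted lines at 2-fold. Glycolysis and other hypoxia-inducible genes lie mostly left of 0 (medians -0.81 and -0.75), interferon-stimulated and inflammatory genes lie to the right (1.34 and 1.55), and the triangle is Pmaip1, which had 0 counts in knockout and is drawn at its bound.

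The calls were not spread evenly over chromosomes. Of 378 tested genes on the X chromosome 71.7% were lower and 5.29% higher in knockout, with a median log2 fold change of -0.35. Chromosome 15 was alike, with 67.8% of 475 genes lower, 4.42% higher and a median of -0.30. Chromosome 19 stood opposite, with 58.6% of 444 genes higher, 11.9% lower and a median of 0.22. Chromosome 17 had 39.1% lower and 12.3% higher among 578 genes, with a median of -0.11. On the other 16 chromosomes the medians lay between -0.06 (chromosome 8) and 0.09 (chromosome 13). With median-of-ratios size factors in place of the TMM scaling, the medians were -0.36 on X, -0.31 on chromosome 15 and 0.21 on chromosome 19. These are counts over neighbouring genes that are not independent, and they are given as a description with no test.

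**Figure D2:**
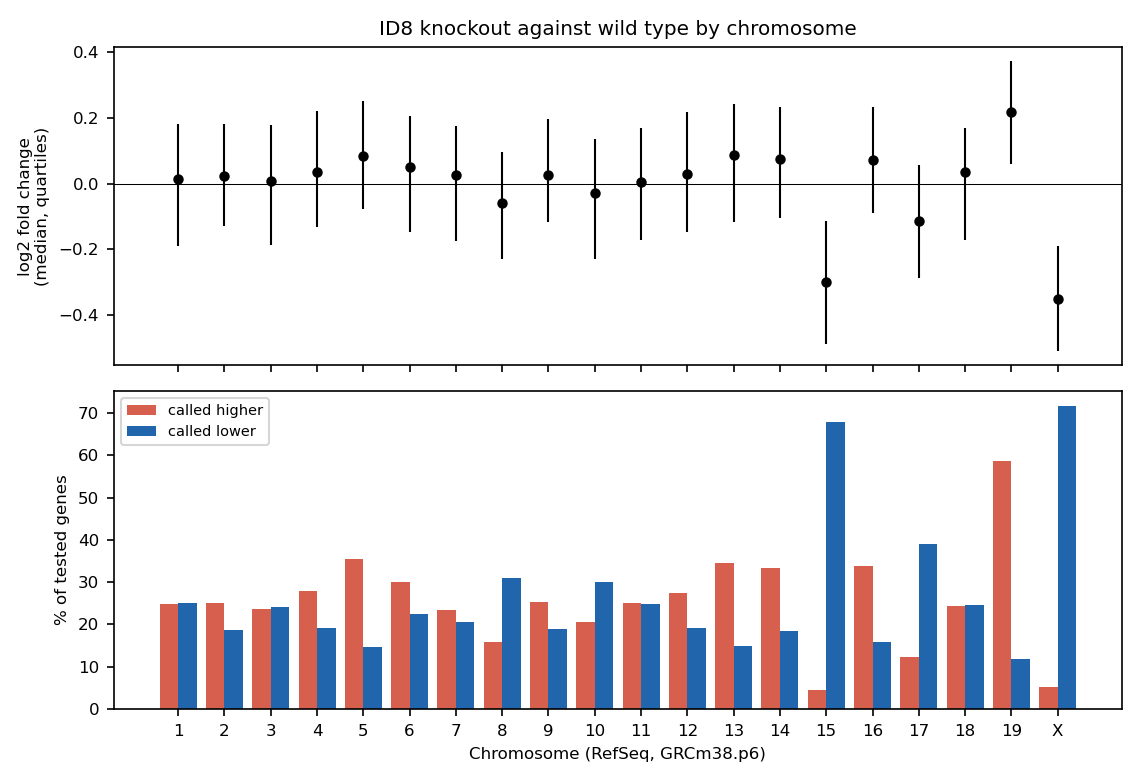
Upper panel, median log2 fold change of knockout over wild type per chromosome with quartiles as bars; lower panel, percentage of tested genes called higher or lower. Chromosomes 15 and X stand at -0.30 and -0.35 and chromosome 19 at 0.22, while the others lie between -0.11 and 0.09.

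The shift ran along the whole of these chromosomes. In blocks of 50 neighbouring tested genes, all 8 blocks on X had medians from -0.42 to -0.31, all 10 on chromosome 15 from -0.37 to -0.21, and all 9 on chromosome 19 from 0.17 to 0.32. All 12 blocks of chromosome 17 (-0.21 to -0.05) and all 13 of chromosome 8 (-0.11 to -0.0026) were below 0 as well, and all blocks of chromosomes 5, 14 and 16 were above 0 (0.01 to 0.19). The longest run of neighbouring genes called lower held 16 genes on chromosome 15, among them Tomm22 of the mitochondrial import pore, Sun2 of the nuclear envelope, Syngr1 of synaptic-type vesicles and the stress factor gene Atf4. Syngr1 stood at 89.3, 88.5 and 92.2 CPM in wild type and 40.5, 42.4 and 37.5 CPM in knockout, and Atf4 fell by 0.22 on the log2 scale (SE 0.0472). A run of 14 genes on X held Otud5, Pim2, Hdac6, Rbm3 and Porcn, which encodes the enzyme that lipidates Wnt proteins and fell by 1.21 (SE 0.127). The longest run called higher, 11 genes on chromosome 19, ran from the kinase gene Grk2 to the copper chaperone gene Ccs, with log2 fold changes of 0.16 to 0.52. Another run of 9 on chromosome 19 held Il33, an alarmin cytokine gene, at 4.12, 4.59 and 4.095 CPM in wild type and 24.9, 25.1 and 24.2 CPM in knockout. A run of 8 on chromosome 5 held the chemokine genes Cxcl5, Cxcl3, Cxcl1 and Cxcl2 with Dck, Adamts3, Cox18 and Ankrd17. Of these run members Ankrd17 lost its call when either of knockout replicates 1 and 2 or wild-type replicates 1 and 3 was left out, Ccs without wild-type or knockout replicate 3, and Hdac6 without knockout replicate 1. Without chromosomes 15, 19 and X (an alternative added once the chromosome pattern had been seen), 5120 of 10636 genes were called, 25.6% higher and 22.5% lower, with a median of 0.018. Where leaving these chromosomes out moves a list count by more than 1.5 times, that count is given too. The chromosome is not stated for every gene named below. Among those without it are Ndufb9, Elfn2, Pdgfb and Wnt7b on chromosome 15, Hif1an and Vldlr on chromosome 19, and Gpc4 on X. Fth1, named above, also lies on chromosome 19.

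**Figure D3:**
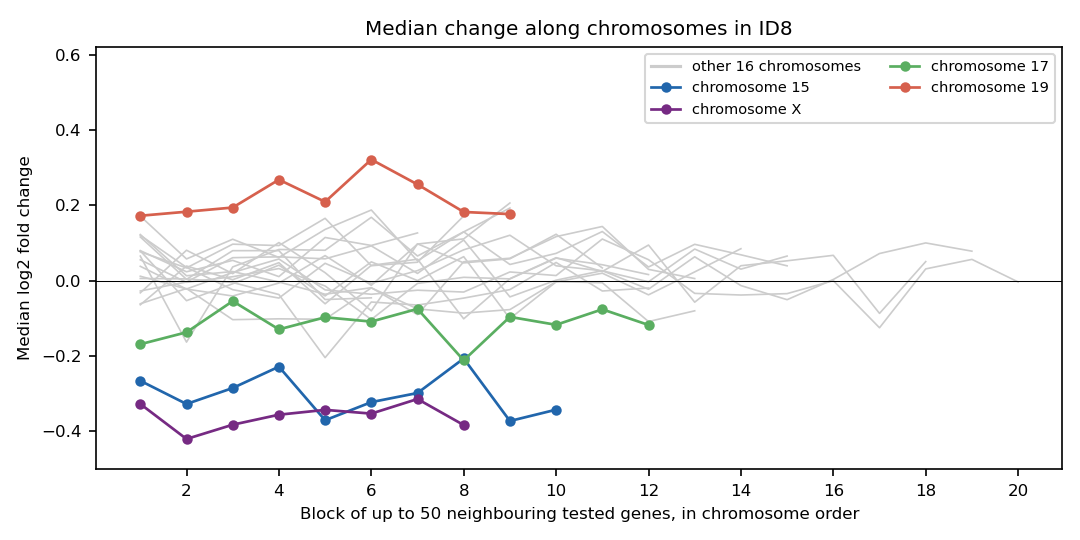
Median log2 fold change (vertical axis) of consecutive blocks of up to 50 tested genes in chromosome order (horizontal axis), for chromosomes 15, 17, 19 and X in colour and the other 16 in grey. Every block of chromosome 19 lies at or above 0.17, and every block of chromosomes 15 and X lies at or below -0.21.

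Glycolysis genes were lower as a group. Glycolysis splits glucose into pyruvate, and many of its enzymes are induced by the hypoxia-inducible factors (HIF), which bind DNA as a pair of an oxygen-controlled alpha subunit and ARNT. When oxygen is ample, prolyl hydroxylases such as EGLN1 and EGLN3 mark the alpha subunit for destruction by VHL. Of 22 tested glycolysis genes 19 fell and 0 rose, with a median log2 fold change of -0.81, and 7 fell by 2-fold or more. Together they took 3.39% ± 0.184 of all counts in wild type and 1.94% ± 0.106 in knockout (SD, n = 3 each). Of the 19 genes of the list outside chromosomes 15, 19 and X, 16 fell.

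Pgk1, phosphoglycerate kinase, stood at 4303, 3909.6 and 3608 CPM in wild type and 1213, 1343 and 1465 CPM in knockout. Slc16a3, which encodes the lactate exporter MCT4, stood at 213, 201 and 217 CPM in wild type and 83.1, 86.4 and 82.4 CPM in knockout. The groups did not overlap for either gene, with log2 fold changes of -1.56 (SE 0.0766, edgeR adjusted p = 6.52e-09) and -1.33 (SE 0.0478, adjusted p = 1.84e-12). Ldha, lactate dehydrogenase A, fell from 2357 ± 107 to 1220.0 ± 37.1 CPM, to 51.8% of wild type. Pfkl, a subunit of phosphofructokinase, fell from 486 ± 30.3 to 235 ± 9.07 CPM, and the hexokinase gene Hk1 from 169 ± 12.9 to 75.8 ± 5.11 CPM. Gpi1, of the isomerase step, fell from 1848 ± 37.9 to 1003 ± 86.7 CPM, and the enolase gene Eno1 from 3283 ± 231 to 1602 ± 89.6 CPM. Pfkp, another phosphofructokinase subunit, was at 24.7% of its wild-type level, the lowest of the list. Slc2a3, Pfkfb4 and Eno2 did not pass, at 91.3%, 101% and 109% of wild type.

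HIF targets outside glycolysis moved mostly the same way. The list of them also holds genes of the HIF pathway itself, such as Hif1a and Hif1an. Of 36 tested members 29 fell and 4 rose, with a median log2 fold change of -0.75, and 10 fell by 2-fold or more. In the fit of 16 libraries 21 fell and 0 rose. Pdk1, the kinase that holds pyruvate back from the mitochondrion, fell by 1.32 on the log2 scale (SE 0.0508). P4ha2, a prolyl hydroxylase of collagen, stood at 91.2, 81.7 and 83.004 CPM in wild type and 28.03, 32.6 and 30.1 CPM in knockout. Egln3, one of the oxygen sensors, stood at 429, 354 and 385 CPM in wild type and 170.2, 182 and 178 CPM in knockout. Both were lower in each knockout library than in any wild-type library (log2 fold change -1.50, SE 0.0658, edgeR adjusted p = 2.13e-11 for P4ha2, log2 fold change -1.14, SE 0.0615, edgeR adjusted p = 5.76e-10 for Egln3).

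The mitophagy receptor gene Bnip3 fell from 88.8 ± 6.28 to 42.3 ± 0.881 CPM, the mTOR inhibitor gene Ddit4 from 495 ± 24.1 to 245 ± 18.9 CPM, and Higd1a, which acts on the respiratory chain, from 109 ± 7.62 to 46.1 ± 2.08 CPM. Adm, which encodes the peptide hormone adrenomedullin, stood at 2.92, 2.58 and 2.99 CPM in wild type and 0.153, 0 and 0.0514 CPM in knockout, so that each knockout library lay at or under the level of 3 counts. Vegfa, the angiogenic ligand gene, was at 56.4% of wild type. The 4 members that rose were Hif1a, the gene of the alpha subunit itself, its inhibitor gene Hif1an, the collagen lysyl hydroxylase gene Plod1 and the carbonic anhydrase gene Car9. Hif1a rose by 0.30 (SE 0.0453) and Car9 by 0.95 (SE 0.1602). Oxygen and HIF protein were not measured.

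**Figure D4:**
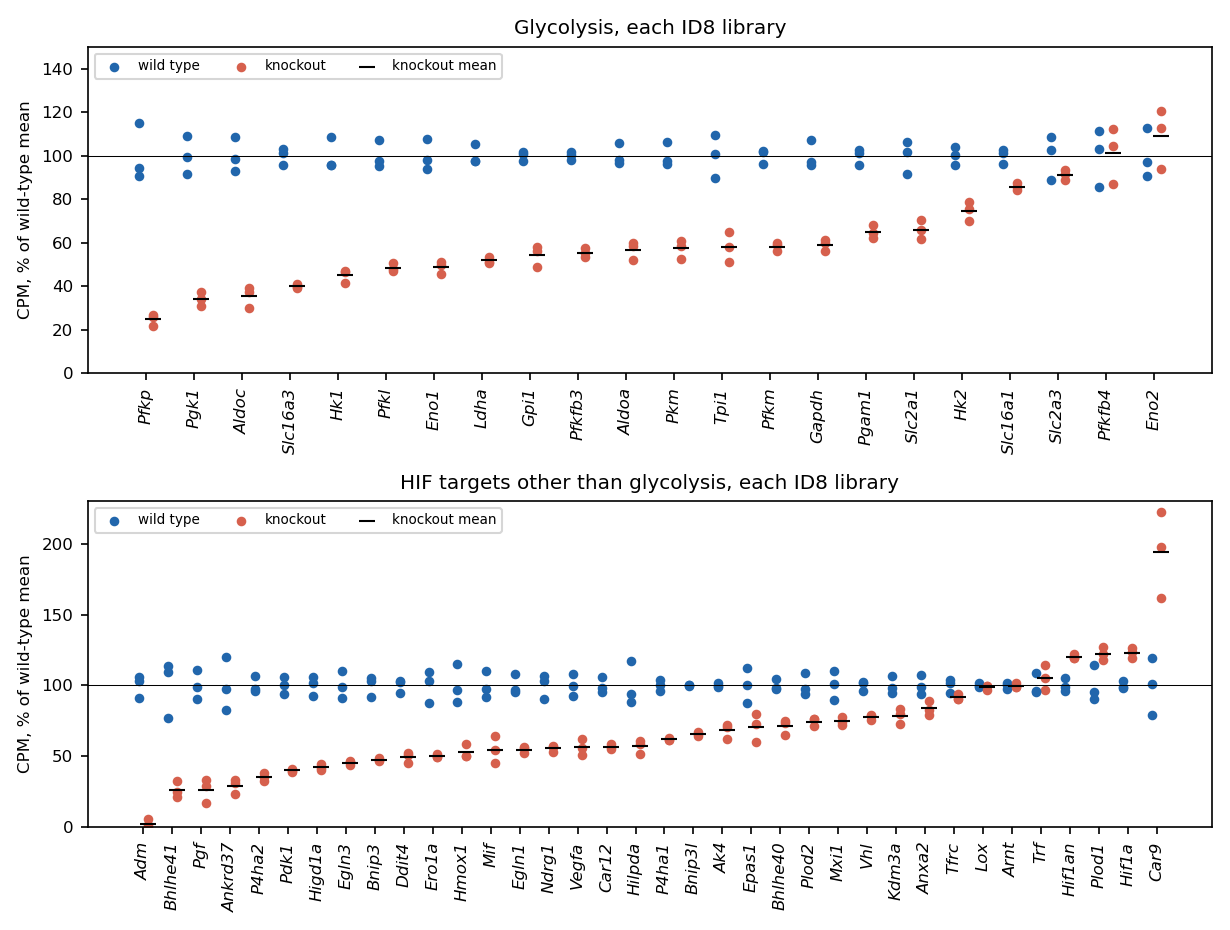
CPM of every tested glycolysis gene (upper panel) and every tested member of the other HIF list (lower panel) in each ID8 library, as a percentage of that gene's wild-type mean, ordered by the knockout mean (black bar). Most knockout libraries (red) lie under the wild-type libraries (blue), from 24.7% for Pfkp in the upper panel, while Car9 lies at 194% in the lower panel.

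The HIF pair binds a short core that reads ACGTG in one form and GCGTG in another. RefSeq promoter windows of build GRCm38.p6, cut to the 250 bases before the annotated start, were searched for both cores on both strands. The tables were counted on GRCm39, so the windows come from another build and were matched by gene. Windows were found for 42 of the 48 genes of both lists that fell, 66 windows in all, since some genes have several starts whose windows can overlap. ACGTG was present in 45.5% of these 66 windows and in 21.5% of 12233 windows of tested genes. GCGTG was present in 54.5% and 44.8%. Both lists were drawn up from glycolysis genes and genes known for HIF control, and members that did not fall were not compared. These shares therefore describe the lists and not the fall. ACGTG also lies inside CACGTG, the E-box that other factors bind, and a palindromic CACGTG counts on both strands. A match on the opposite strand reads CACGT for the first core and CACGC for the second. A match of letters does not show binding. The windows of 5 genes with 1 annotated start and a lower level in knockout are given 5′ to 3′ on the gene's own strand, with matches in capitals, to show how the cores are spaced in genes described above. They were picked as examples, and each holds at least 1 match, so they do not stand for the 66 windows.
Pgk1: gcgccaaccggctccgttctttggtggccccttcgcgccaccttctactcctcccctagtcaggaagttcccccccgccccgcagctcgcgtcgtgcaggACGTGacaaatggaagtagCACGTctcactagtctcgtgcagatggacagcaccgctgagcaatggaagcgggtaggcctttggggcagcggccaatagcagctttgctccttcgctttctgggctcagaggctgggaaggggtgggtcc
Slc16a3: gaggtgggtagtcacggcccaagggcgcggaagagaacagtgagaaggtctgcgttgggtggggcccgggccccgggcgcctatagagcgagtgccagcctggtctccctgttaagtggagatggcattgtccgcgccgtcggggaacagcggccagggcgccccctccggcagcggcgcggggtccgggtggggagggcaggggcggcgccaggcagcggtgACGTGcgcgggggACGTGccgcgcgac
Pfkl: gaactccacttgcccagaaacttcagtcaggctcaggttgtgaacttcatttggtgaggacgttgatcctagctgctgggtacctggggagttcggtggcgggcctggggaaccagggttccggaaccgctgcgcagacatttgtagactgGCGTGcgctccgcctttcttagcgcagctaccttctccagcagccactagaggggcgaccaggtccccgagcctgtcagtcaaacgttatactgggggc
P4ha2: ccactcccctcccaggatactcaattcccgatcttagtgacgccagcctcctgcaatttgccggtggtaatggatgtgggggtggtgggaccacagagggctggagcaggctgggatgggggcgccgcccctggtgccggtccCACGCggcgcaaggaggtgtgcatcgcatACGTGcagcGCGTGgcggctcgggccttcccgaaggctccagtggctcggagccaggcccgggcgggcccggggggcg
Bnip3: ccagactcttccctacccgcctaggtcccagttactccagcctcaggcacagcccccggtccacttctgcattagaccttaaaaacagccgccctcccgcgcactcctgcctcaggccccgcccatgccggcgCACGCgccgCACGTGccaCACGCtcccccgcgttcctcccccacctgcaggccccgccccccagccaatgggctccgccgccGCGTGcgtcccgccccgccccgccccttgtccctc
The Pgk1 window lies at chrX:106186850-106187099 on the plus strand, with 2 matches. Those of Slc16a3, at chr11:120948817-120949066 on the plus strand, and Pfkl, at chr10:78009808-78010057 on the minus strand, hold 2 and 1. The P4ha2 window, at chr11:54100674-54100923 on the plus strand, holds 3, and that of Bnip3, at chr7:138909507-138909756 on the minus strand, holds 5, of which a CACGTG gives 2.

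Genes of mitochondrial respiration and of the ribosome were lower, mostly by small amounts. Of 31 genes of the citric acid cycle and pyruvate entry 17 fell and 1 rose (median -0.17), with 6 and 0 in the fit of 16 libraries. The 17 include genes of kinases that hold pyruvate back, Pdk1 and, on the X chromosome, Pdk3. Pdk1, already counted among the HIF targets, was the most changed of the list (-1.32), and Pdk3 fell by 0.45. The gene that rose was Pcx, pyruvate carboxylase, which lies on chromosome 19. Outside chromosomes 15, 19 and X 13 of 26 fell and 0 rose, and without wild-type replicate 3 the count of risen genes was 2. Among nuclear-encoded subunits of complex I, 21 of 36 fell and 1 rose (median -0.19), with 9 and 1 in the fit of 16 libraries, and without wild-type replicate 3 the risen genes numbered 2. Outside the 3 chromosomes 17 of 29 fell and 0 rose. Ndufv3, an accessory subunit, fell from 81.8 ± 8.26 to 41.7 ± 1.18 CPM, and Ndufb9 from 139 ± 10.4 to 88.7 ± 5.56 CPM. Of complexes III to V 32 of 36 subunit genes fell and 0 rose (median -0.25), against 7 that fell in the fit of 16 libraries. Cox4i1, a cytochrome oxidase subunit gene, fell from 431 ± 32.5 to 313 ± 8.27 CPM, and Cox7b, on the X chromosome, from 189.7 ± 9.66 to 123 ± 8.603 CPM.

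Cytosolic ribosomal protein genes fell in 61 of 76 cases and rose in 0, with a median of -0.29, and 34 fell in the fit of 16 libraries. Their log2 fold changes ranged from -0.71 to 0.06, and together they took 6.54% ± 0.259 of counts in wild type and 5.62% ± 0.0961 in knockout. Rpl11, outside the shifted chromosomes, stood at 614, 539 and 522 CPM in wild type and 394, 403 and 398 CPM in knockout. The most changed member, Rpl10, lies on X and stood at 1572, 1402 and 1437 CPM in wild type and 849, 902 and 951 CPM in knockout. Outside chromosomes 15, 19 and X the count was 54 of 68. Of 31 constitutive proteasome genes 8 fell and 4 rose (median -0.04), against 3 and 3 in the fit of 16 libraries.

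Cholesterol synthesis genes were lower too. They are driven by SREBP-2, the product of Srebf2, which is released when membrane sterol runs low. Of 27 tested genes of sterol synthesis and uptake 21 fell and 1 rose, with a median of -0.45. Sqle, squalene epoxidase, stood at 124, 113 and 120.1 CPM in wild type and 60.6, 57.3 and 59.6 CPM in knockout. Cyp51, the lanosterol demethylase gene, stood at 189, 184 and 194 CPM in wild type and 99.9, 91.1 and 102 CPM in knockout. No knockout library reached the lowest wild-type library for either gene (log2 fold change -1.01, SE 0.0519, edgeR adjusted p = 1.48e-10 and log2 fold change -0.95, SE 0.0512, edgeR adjusted p = 2.53e-10). Srebf2 fell from 488 ± 9.82 to 368 ± 2.88 CPM, and Fdps, which makes farnesyl diphosphate, from 86.7 ± 4.21 to 47.9 ± 4.603 CPM. Srebf2 and Sqle both lie on chromosome 15, where 67.8% of tested genes were lower. Outside the shifted chromosomes 16 of 22 genes of the list fell and 1 rose, with a median of -0.40. The 1 gene that rose was Abca1, the cholesterol exporter, at 1.77, 2.21 and 1.94 CPM in wild type and 5.87, 6.82 and 6.47 CPM in knockout.

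Of 27 genes of fatty acid synthesis and desaturation 14 fell and 3 rose (median -0.18), with 8 and 1 in the fit of 16 libraries and 11 and 0 of 18 outside chromosomes 15, 19 and X. Scd1 and Scd2 encode stearoyl-CoA desaturases, which place the double bond of oleate, and both lie on chromosome 19, where most called genes were higher. Scd1 stood at 288, 284 and 279.5 CPM in wild type and 118, 112 and 114 CPM in knockout, and Scd2 fell from 3570.1 ± 38.1 to 2019.8 ± 70.1 CPM. Amino acid stress genes, the targets of ATF4 with the serine and one-carbon pathway, fell in 18 of 35 cases and rose in 2 (median -0.22), with 10 and 0 in the fit of 16 libraries. Mthfd1l, of mitochondrial one-carbon metabolism, fell from 70.7 ± 6.95 to 33.6 ± 2.7998 CPM, the amino acid transporter gene Slc7a5 fell from 151 ± 9.57 to 97.4 ± 3.597 CPM, and Trib3 fell from 20.8 ± 1.31 to 11.97 ± 0.625 CPM. Vldlr, a lipoprotein receptor gene of the same list, fell from 11.8 ± 2.23 to 0.974 ± 0.188 CPM.

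Glutathione and metal genes went in both directions. Gstm1, a glutathione transferase gene, fell from 77.7 ± 1.699 to 30.8 ± 2.55 CPM, and Gstt1 from 6.61 ± 0.667 to 0.752 ± 0.283 CPM. Sod3, extracellular superoxide dismutase, rose from 23.2 ± 0.885 to 54.4 ± 0.453 CPM. Mt2, a metallothionein gene, stood at 1.93, 1.79 and 1.73 CPM in wild type and 22.3, 24.6 and 23.9 CPM in knockout, and Steap4, a metalloreductase gene, at 0.313, 0.5797 and 0.105 CPM in wild type and 8.12, 10.7 and 8.94 CPM in knockout. All 3 knockout libraries were above all 3 wild-type libraries for both. Of 42 tested genes of the NRF2 and glutathione list 10 rose and 16 fell, with 4 and 9 in the fit of 16 libraries. Of 25 metal handling genes 9 rose and 7 fell, with 7 and 3 in that fit.

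Collagen and contractile genes were lower in knockout. Of 14 tested collagen genes 9 fell and 1 rose, with a median log2 fold change of -0.82. The gene that rose, Col16a1, did not pass without wild-type replicate 3 or without knockout replicate 3, nor in the fit of 16 libraries. Col3a1, of fibrillar type III collagen, stood at 355, 357 and 291 CPM in wild type and 40.8, 50.5 and 57.7 CPM in knockout. Col1a1, of type I, stood at 179, 198 and 146 CPM in wild type and 71.1, 84.2 and 89.99 CPM in knockout. The knockout libraries lay under the wild-type libraries for both (log2 fold change -2.75, SE 0.156, edgeR adjusted p = 5.51e-05 and log2 fold change -1.09, SE 0.146, edgeR adjusted p = 0.00193). Col6a2 fell from 213 ± 6.395 to 116 ± 10.7 CPM and Col5a1 from 50.9 ± 8.07 to 33.3 ± 0.721 CPM, while Col12a1 and Col20a1 did not pass, with log2 fold changes of -0.05 and -0.13.

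Of 30 tested contractile and smooth muscle type genes 18 fell and 2 rose (median -0.30), with 10 and 1 in the fit of 16 libraries. The count of risen genes was 1 without wild-type replicate 1, knockout replicate 2 or knockout replicate 3. Myl9, a myosin light chain gene, stood at 5.74, 5.797 and 4.41 CPM in wild type and 0.102, 0.102 and 0.308 CPM in knockout. Acta2, smooth muscle actin, fell from 4.79 ± 0.595 to 1.297 ± 0.249 CPM, and Cnn2, calponin 2, from 177 ± 6.08 to 92.03 ± 1.93 CPM. Srf, the transcription factor gene that drives many contractile genes, fell from 83.5 ± 1.85 to 51.9 ± 2.02 CPM. Host fibroblast, fat and muscle markers summed to 41.1 to 47.3 CPM in wild-type and 40.7 to 44.3 CPM in knockout libraries.

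Other matrix genes were split, as 10 of 30 glycoprotein and proteoglycan genes rose and 15 fell, with 6 and 8 in the fit of 16 libraries. Gpc4, a glypican that carries heparan sulfate at the cell surface, stood at 18.99, 19.9 and 18.5 CPM in wild type and 0.664, 0.717 and 0.925 CPM in knockout. Sdc4, a syndecan that also carries heparan sulfate, rose from 576 ± 12.8 to 943 ± 26.4 CPM, and Spon2, a secreted matrix protein gene, from 0.577 ± 0.136 to 5.39 ± 0.467 CPM. The basement membrane genes Agrn and Npnt rose by 1.12 (SE 0.0568) and 1.18 (SE 0.06105). Itgb4, the integrin subunit of hemidesmosomes, rose from 19.3 ± 3.15 to 56.4 ± 4.67 CPM, while its partner gene Itga6 fell from 136 ± 4.09 to 85.9 ± 1.804 CPM. Of 14 tested integrin genes 4 rose and 8 fell, with 2 and 3 in the fit of 16 libraries. Tgm2, a cross-linking transglutaminase gene, rose from 261 ± 6.81 to 508 ± 16.7 CPM.

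Genes of the ovarian surface and mesothelium changed in both directions. The ovarian surface epithelium is a mesothelium-like layer that expresses Wt1, uroplakins and keratins. Of 34 tested genes 11 rose and 15 fell (median -0.07), and 6 rose and 10 fell in the fit of 16 libraries. Podxl, a sialomucin of the apical membrane, stood at 71.7, 80.1 and 84.2 CPM in wild type and 365, 394 and 388 CPM in knockout. Aldh1a1, a retinaldehyde dehydrogenase gene, stood at 73.6, 73.2 and 71.7 CPM in wild type and 298, 313 and 294 CPM in knockout. Each was higher in every knockout library (log2 fold change 2.28, SE 0.0587, edgeR adjusted p = 3.68e-14 and log2 fold change 2.05, SE 0.0473, edgeR adjusted p = 8.87e-15), and Aldh1a1 lies on chromosome 19.

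Rspo1, a secreted enhancer of Wnt signalling with a role in ovary formation, rose from 18.4 ± 1.09 to 74.6 ± 1.95 CPM. Upk1b rose from 276 ± 15.5 to 584 ± 26.1 CPM and Upk3b, which did not pass in the fit of 16 libraries, from 2238 ± 161 to 3592 ± 176 CPM. Muc16, whose product carries the ovarian cancer antigen CA125, stood at 18.3, 47.01 and 24.9 CPM in wild type and 107, 126 and 74.7 CPM in knockout, with a wider spread (log2 fold change 1.77, SE 0.435, edgeR adjusted p = 0.0298). Muc16 did not pass when wild-type replicate 1 or 3 or knockout replicate 1 or 2 was left out (edgeR adjusted p of 0.074 to 0.101). The defining gene Wt1 was present in both groups and rose from 605 ± 11.8 to 738 ± 18.5 CPM, and Msln, mesothelin, did not pass at 381, 379 and 358 CPM in wild type and 331, 366 and 377 CPM in knockout. On the falling side, Inhbb, an inhibin and activin subunit gene, stood at 109, 101 and 95.4 CPM in wild type and 40.2, 36.6 and 40.6 CPM in knockout. Lrrn4, a mesothelial surface gene, fell from 108 ± 6.86 to 47.1 ± 1.14 CPM, and Star, which moves cholesterol into mitochondria for steroid synthesis, from 53.3 ± 0.758 to 24.3 ± 1.01 CPM. Amhr2, the receptor gene for anti-Müllerian hormone, lies on chromosome 15 and fell from 357 ± 18.9 to 185 ± 18.5 CPM. Krt8 and Krt18, the simple epithelial keratin genes, lie on chromosome 15 and fell by 0.48 and 0.54 on the log2 scale. Of 18 tested keratin and desmosome genes 8 fell and 3 rose, with 6 and 0 in the fit of 16 libraries, and outside chromosomes 15, 19 and X 4 of 14 fell.

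**Figure D5:**
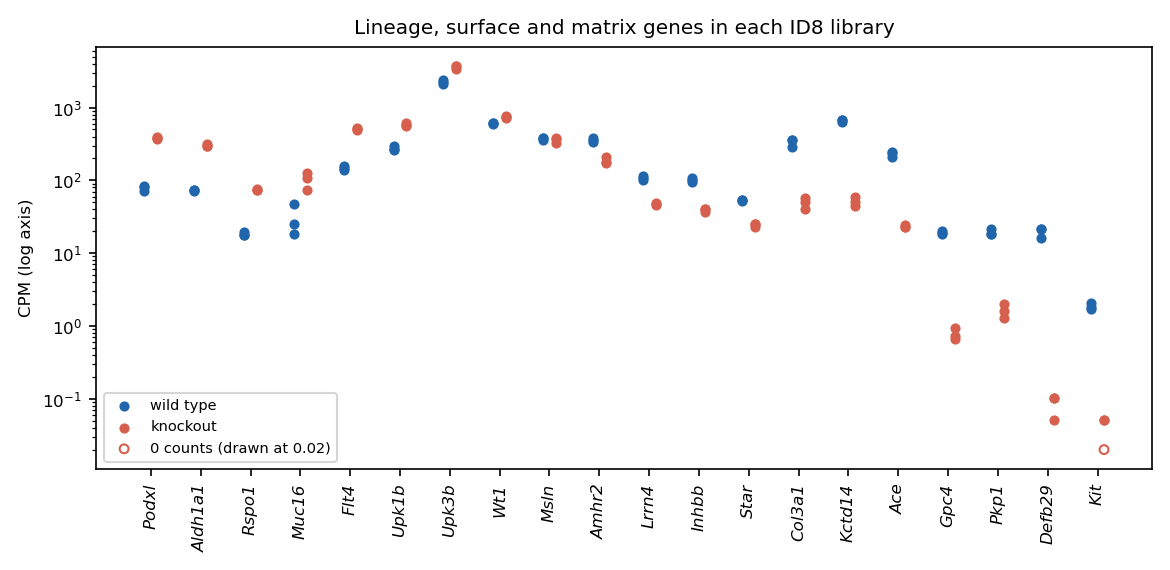
CPM of 20 lineage, surface and matrix genes in each ID8 library on a log axis, with wild type in blue and knockout in red, and an open circle where a library had 0 counts. Podxl, Aldh1a1, Rspo1 and Flt4 lie higher in knockout, Msln overlaps between the groups, and Defb29 and Kit lie under 0.16 CPM in every knockout library.

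Several single genes fell to a small part of their wild-type level. Kctd14 stood at 669.8, 641 and 666 CPM in wild type and 44.1, 58.6 and 51.004 CPM in knockout, and Ace, the angiotensin-converting enzyme gene, at 243, 239 and 211 CPM in wild type and 22.7, 22.8 and 24.2 CPM in knockout. Neither group overlapped the other (log2 fold change -3.68, SE 0.08401, edgeR adjusted p = 7.4e-12 and log2 fold change -3.31, SE 0.0647, edgeR adjusted p = 8.59e-16). Pkp1, a plakophilin of desmosomes, fell from 19.5 ± 1.93 to 1.62 ± 0.359 CPM, Elfn2 from 23.3 ± 0.646 to 2.27 ± 0.0353 CPM, the kinesin gene Kif21b from 20.1 ± 0.926 to 1.98 ± 0.0295 CPM, and Kcnh2, a potassium channel gene, from 75.7 ± 2.46 to 25.2 ± 0.352 CPM. Tspan11, a tetraspanin gene, stood at 10.5, 9.43 and 10.1 CPM in wild type and 0.102, 0.102 and 0.257 CPM in knockout.

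Receptor genes also changed by large amounts. Flt4, which encodes the VEGF-C receptor VEGFR-3, stood at 148, 157 and 139.9 CPM in wild type and 494, 527 and 506 CPM in knockout, with no overlap (log2 fold change 1.78, SE 0.05199, edgeR adjusted p = 1.75e-13). Tek, the angiopoietin receptor gene, stood at 0, 0.0527 and 0.0525 CPM in wild type and 1.02, 0.564 and 0.616 CPM in knockout. Flt4 and Tek are endothelial genes in tissue, and Cdh5, Kdr and Cldn5 were at 0 counts in all 6 libraries. The list of endothelial, pericyte and red blood cell markers, Tek included, summed to 17.3 to 18.1 CPM in wild type and 13.05 to 13.84 CPM in knockout, against 722 to 1122 CPM in KPC. Kit, the stem cell factor receptor gene, stood at 2.09, 1.84 and 1.73 CPM in wild type and 0, 0.0512 and 0.0514 CPM in knockout. Fgfr1 fell from 105 ± 2.08 to 57.01 ± 1.96 CPM, and Tyro3, of the TAM family, from 34.6 ± 1.49 to 14.96 ± 1.37 CPM. Of the ephrin receptor genes, Ephb4 fell from 11.4 ± 0.674 to 4.404 ± 0.586 CPM and Ephb2 from 3.66 ± 0.258 to 0.922 ± 0.0885 CPM. Of 30 tested receptor tyrosine kinase genes 12 rose and 7 fell, with 4 and 5 in the fit of 16 libraries.

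Among ligands, Pdgfb fell from 81.1 ± 3.73 to 40.3 ± 3.29 CPM and Pdgfc from 104 ± 2.998 to 69.5 ± 1.31 CPM, and the IGF-binding protein gene Igfbp4 from 1973 ± 2.46 to 1273 ± 4.11 CPM. In the Wnt pathway 7 of 40 genes rose and 14 fell, with 3 and 7 in the fit of 16 libraries, and 4 rose without wild-type replicate 1. The ligand genes went both ways, as Wnt6 fell from 96.6 ± 3.33 to 43.9 ± 1.33 CPM and Wnt7b from 15.3 ± 1.003 to 4.35 ± 0.473 CPM, while Wnt10a rose from 112 ± 5.13 to 167 ± 8.78 CPM. Lgr6, a receptor for R-spondins, stood at 1.51, 1.69 and 1.73 CPM in wild type and 0.153, 0.154 and 0.0514 CPM in knockout. The guidance ligand gene Sema7a fell from 8.22 ± 0.855 to 1.57 ± 0.207 CPM, and Sema3a and Sema3c rose by 0.60 and 0.58.

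Enzymes that build surface glycans were divided as well, with 20 of 41 tested genes higher and 13 lower, and 12 and 8 in the fit of 16 libraries. A4galt, which makes the globoside Gb3, stood at 3.97, 3.85 and 4.25 CPM in wild type and 0.204, 0.0512 and 0.0514 CPM in knockout. It lies on chromosome 15. St8sia1, which makes the ganglioside GD3, stood at 28.6, 31.4 and 29.2 CPM in wild type and 7.25, 6.92 and 6.78 CPM in knockout. St3gal1, a sialyltransferase gene on chromosome 15, rose from 179 ± 8.14 to 283 ± 8.74 CPM, and B4galt5, which makes lactosylceramide, from 179 ± 7.07 to 263 ± 2.49 CPM.

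p53 targets rose in 24 of 30 cases and fell in 2, with a median of 0.39 that is the same with Pmaip1 at its bound, and 11 rose in the fit of 16 libraries. p53 is a transcription factor of the DNA damage response that halts the cell cycle or brings on cell death. Aen, a nuclease gene of p53-dependent apoptosis, stood at 28.5, 25.7 and 26.4 CPM in wild type and 55.4, 55.7 and 58.7 CPM in knockout. Zmat3, an RNA-binding p53 target, rose from 69.003 ± 5.62 to 134 ± 4.33 CPM, Plk2 from 75.1 ± 0.995 to 128 ± 3.86 CPM, and the death receptor gene Fas, on chromosome 19, from 5.91 ± 1.54 to 19.3 ± 1.18 CPM. Cdkn1a, which encodes the cell cycle inhibitor p21, rose from 91.8 ± 4.62 to 122 ± 1.72 CPM but did not pass in the fit of 16 libraries. The 2 genes that fell were Rrm2b on chromosome 15, by 0.47 on the log2 scale, and Pmaip1, so that 1 of 26 fell outside chromosomes 15, 19 and X.

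Pmaip1 encodes the cell death factor Noxa. It stood at 9.29, 9.38 and 9.98 CPM in wild type and 0 CPM in all 3 knockout libraries. Against the level of 3 counts per knockout library it was at least 61.96-fold lower. Ripk3, the kinase that starts necroptosis, stood at 10.2, 10.5 and 10.6 CPM in wild type and 0.408, 0.4099 and 0.411 CPM in knockout. The inflammatory caspase genes rose, Casp4 from 9.65 ± 0.734 to 27.02 ± 1.84 CPM and Casp1 from 15.5 ± 1.23 to 24.8 ± 2.05 CPM, though Casp1 did not pass in the fit of 16 libraries. Gsdmd, the pore-forming gasdermin that they cut, on chromosome 15, fell from 136 ± 1.68 to 95.8 ± 1.46 CPM. Pycard, which encodes the inflammasome adaptor ASC, stood at 1.57, 0.738 and 1.37 CPM in wild type and 0 CPM in all 3 knockout libraries. Of 32 genes of the BCL2 family, caspases and related death factors 14 rose and 12 fell, with 3 and 6 in the fit of 16 libraries.

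Among 43 genes of 53BP1 partners and double-strand break repair 13 rose and 7 fell, Trp53bp1 included, with a median of 0.06. The fit of 16 libraries called 3 higher and 5 lower, and 7 or 8 rose without wild-type replicate 1, knockout replicate 1 or knockout replicate 3. Atm, the kinase that responds to breaks, rose from 16.5 ± 2.01 to 28.6 ± 1.87 CPM. Xrcc6, which encodes Ku70 of end joining and lies on chromosome 15, fell from 70.2 ± 0.991 to 42.5 ± 3.799 CPM, Parp1 from 256 ± 1.88 to 174 ± 6.19 CPM, and Usp28, the 53BP1-binding deubiquitinase gene, from 25.8 ± 1.57 to 17.1 ± 0.536 CPM. Rif1, Brca1 and Brca2 did not pass, with log2 fold changes of 0.07, 0.16 and -0.03.

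Of 37 mitosis genes 15 rose and 2 fell (median 0.12), with 4 and 0 in the fit of 16 libraries, and 1 fell without knockout replicate 2 or 3. Nuf2, of the kinetochore, rose from 40.3 ± 1.29 to 52.1 ± 3.002 CPM. Of 43 DNA replication genes 11 rose (25.6%) and 8 fell (18.6%), beside 25.4% and 25.5% of all tested genes (median 0.03), with 4 and 3 in the fit of 16 libraries, and 5 fell without wild-type replicate 1. Of the G1 genes, Ccnd1, cyclin D1, rose from 167 ± 1.42 to 245 ± 7.62 CPM, Cdk6 from 89.5 ± 8.15 to 125 ± 3.54 CPM and Ccne1, cyclin E1, from 1.21 ± 0.134 to 3.86 ± 0.798 CPM, while Myc, on chromosome 15, fell from 68.4 ± 2.14 to 49.995 ± 1.85 CPM.

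Complement and coagulation genes fell in 13 of 22 cases and rose in 6 (median -0.37), with 4 and 2 in the fit of 16 libraries. C2, a protease of the classical pathway, stood at 10.5, 11.8 and 9.56 CPM in wild type and 0.511, 0.922 and 0.925 CPM in knockout. The protease gene Masp1 fell from 15.3 ± 0.624 to 4.64 ± 0.5397 CPM, and Clu, clusterin, from 169.7 ± 4.93 to 71.9 ± 4.71 CPM. Cd55, which guards cells from complement, rose from 206 ± 3.14 to 369.9 ± 7.83 CPM. For comparison, all 29 members of a list of interferon-stimulated genes rose (median 1.34), with 16 in the fit of 16 libraries, and 23 of 25 inflammatory genes rose (median 1.55). MHC class I and antigen processing genes rose in 8 of 17 cases and fell in 0 (median 0.20), with 0 and 0 in the fit of 16 libraries, and 2 fell without wild-type replicate 2. B2m, the light chain shared by class I molecules, rose from 209 ± 13.1 to 280.2 ± 21.3 CPM, and the checkpoint ligand gene Cd274, on chromosome 19, from 1.78 ± 0.229 to 3.64 ± 0.622 CPM; neither passed in the fit of 16 libraries.

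Some genes were at or close to 0 counts in 1 group only. With a mean of at least 1 CPM in wild type and at most 3 counts in each knockout library there were 28 genes, of which 7 had 0 counts in knockout. Some of the 28 did not pass the filter on low counts and were not tested. The reverse held for 7 genes, of which 1 had 0 counts in wild type. Defb29, a beta-defensin gene, stood at 21.2, 21.3 and 16.2 CPM in wild type and 0.102, 0.102 and 0.0514 CPM in knockout. Ttc38 stood at 2.71, 2.58 and 2.47 CPM in wild type and 0 CPM in all 3 knockout libraries, and was at least 16.8-fold lower against the level of 3 counts per library. The vascular gene Egfl7 stood at 1.93, 1.69 and 2.36 CPM in wild type and 0.0511, 0.102 and 0.0514 CPM in knockout, the channel gene Hcn2 at 2.19, 2.06 and 2.52 CPM in wild type and 0.0511, 0.102 and 0.154 CPM in knockout, and the ketone body enzyme gene Bdh1 at 1.93, 1.74 and 1.79 CPM in wild type and 0.153, 0 and 0.103 CPM in knockout. S1pr1, the sphingosine-1-phosphate receptor gene, stood at 0.887, 0.949 and 1.31 CPM in wild type and 0 CPM in all 3 knockout libraries. In the other direction Saa3, an acute phase gene, stood at 0.104, 0.105 and 0.158 CPM in wild type and 18.4, 18.4 and 20.1 CPM in knockout, and the interferon-inducible GTPase gene Gvin2 at 0 CPM in all 3 wild-type libraries and 3.57, 2.56 and 1.9005 CPM in knockout, at least 16.9-fold higher against the same level. In all, 818 genes had rounded counts in wild type only and 599 in knockout only, and these numbers include the genes at 0 counts described above.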

How the data were processed

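Expected counts per gene were deposited by the authors. Per the submitters' processing notes, HISAT, RSEM 1.2.8 and the mouse build GRCm39 (mm39) were used. The annotation, strand setting and read filters are not given in the sources used here. Expected counts were rounded to whole numbers, and every column of per-sample values was matched to a sample by its label.

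Groups come from the cell line and genotype in the labels. Genes that passed filterByExpr were tested with edgeR 4.0.16 (limma 3.58.1, R 4.3.3) using TMM scaling, robust quasi-likelihood F tests on the 6 ID8 libraries and Benjamini-Hochberg adjustment over 11933 genes, called at 0.05. Standard errors are approximate, taken as the size of the log2 fold change over the square root of the F statistic. CPM values carry the TMM scaling. Replicates differed by more than sampling noise, and none was counted as a duplicate. The lowest library total was 18963868 counts, and levels of 3 counts cover counting error only. The fit was tested on simulated data with 200 changed genes among 11933: 86.9% of those changed 1.5-fold, 95.5% of those changed 2-fold and 97.3% of those changed 4-fold were called, and false calls made up 7.91%. The 6067 genes called in the data are more than were simulated as changed, so these rates need not hold for them.

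The members, the 61 gene lists and the naming rule were chosen with earlier results of these data known. Lists are described by counts and medians beside those of all tested genes, with no set test. Genes are named by rule: Trp53bp1, the 20 highest and 20 lowest fold changes among called genes whose groups do not overlap and whose average log2 CPM is 1 or more, of each list the 6 members of smallest p (all members of lists with 15 or fewer), the 10 strongest genes at or under 3 counts in one group per direction, the 6 largest gains and losses of CPM, and the 3 longest runs per direction. Predicted genes, Rik genes and pseudogenes are not named. Amhr2, Brca1, Brca2, Car9, Eno2, Hif1a, Hif1an, Msln, Muc16, Pfkfb4, Pfkp, Plod1, Pycard, Rif1, Rrm2b, S1pr1, Slc2a3, Star, Vegfa and Wt1, and the host markers at 0, were named after their values were seen. Chromosomes come from a RefSeq table of GRCm38.p6, which matched 11876 of 11933 genes. Promoter windows of the same build matched 9566 of 11933 genes. Reads of near-identical genes (the Gbp and Oas1 families, Rbm4 with Rbm4b) can be divided by RSEM, so single members are uncertain, and overlapping genes can share reads.

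As alternatives, size factors by median of ratios, limma-voom and the Wald test of DESeq2 1.42.0 were used, genes were left unfiltered, filtered at 1 CPM in 3 libraries or kept only where both tables list them, the replicate number was added as a block, all 16 libraries were fitted jointly, each replicate was left out, and, added once the data had been seen, chromosomes 15, 19 and X were left out.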

Additional observations from a re-analysis of the deposited data

How the results depend on the processing

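Of 6067 genes called in the fit of the 6 ID8 libraries, none of those called under any alternative changed direction. The calls numbered 6035 with median-of-ratios size factors (5966 shared), 5252 with DESeq2 (5225 shared), 6057 with limma-voom, 6295 with no filter, 5921 with the 1 CPM filter, 6049 over genes listed in both tables, and 5355 to 5786 when each replicate was left out. The joint fit of 16 libraries called 2679 genes, 1170 higher and 1509 lower, and 2548 of them were shared; it takes 1 estimate of the spread over both cell lines. Of the 477 genes that the naming rule takes in, not all of which are named above, 110 lost their call there and 7 lost it with DESeq2. Trp53bp1 kept its call in all alternatives. Without the genes of chromosomes 15, 19 and X, which was chosen once the data had been seen, 5120 calls remained of the same fit. The list counts that moved by over 1.5 times numbered 84 of 122 in the joint fit and 2 to 6 of 122 when a replicate was left out.

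The replicate numbers were not taken as pairs, since deviations of same-numbered libraries correlated at -0.09, 0.14 and -0.11 for numbers 1, 2 and 3. With a replicate block 5852 genes were called, and 5745 of the calls without the block were shared.

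Limits: 3 libraries per group from 1 line per genotype cannot separate the knockout from other differences between the lines. Calls of small fold are many and rest on a small spread between libraries. Genes under about 3 counts per library have bounds at most. Chromosome and promoter data come from another build than the counts.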
